A study of Mus musculus with 9 samples.

Results

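Laminins, elastic-fibre proteins and other non-collagen glycoproteins of the extracellular matrix were followed across 3 endothelial populations of the fetal mouse heart. The 48 genes were taken by symbol from a list of 49 names, in which Multimerin2 is the protein name of Mmrn2, out of 41214 genes in the deposited table. They comprised 10 laminin chains, 4 basement membrane linkers and proteoglycans, 3 fibrillin and elastin genes, 5 fibulins, 5 emilin and microfibril-associated genes, 4 latent TGF-beta binding proteins, 5 lysyl oxidases, 8 matricellular genes and 4 other glycoproteins. The listing rule itself uses gene symbols and no measured value. Cells came from ventricles of E17.5 embryos that carried the Nes-Gfp(Tg/0) reporter, the inducible recombinase Nes-CreER(Tg/0) and the R26(tom/+) Tomato allele, with 0.1 ug of tamoxifen given at E15.5, and all 3 populations shared this genotype and treatment. Atria and the aortic region had been cut away, and viable Ter119-, CD45-, CD31+ cells were sorted. The endocardial population was sorted as GFP+, the arterial-enriched coronary population as GFP+, Emcn-low and Tomato+, and the venous-enriched coronary population as GFP+ but GFP-low, Emcn-low and Tomato-. The gate written for endocardial cells names neither endomucin nor Tomato, and the arterial gate is described as holding capillaries too. Both the reporter and the inducible Cre carry the name of the Nes gene, whose regulatory elements are active in part of the coronary endothelium, so the Tomato gate depends on where Nes-CreER acts. Each population had 3 RNA-seq libraries, and the labels do not say whether the replicates were separate animals, litters or pools, so p-values measure the spread between these libraries.

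Laminins are heterotrimers of 1 alpha, 1 beta and 1 gamma chain that polymerise in the basement membrane under the endothelium, where nidogens, perlecan and agrin tie the laminin network to collagen IV and to the cell surface. Elastic fibres form when tropoelastin is laid down on microfibrils of fibrillin, with fibulins and emilins as assembly factors and lysyl oxidases as cross-linking enzymes; latent TGF-beta binding proteins anchor latent growth factor to the same microfibrils. Matricellular proteins such as periostin, thrombospondins and SPARC are secreted into the matrix and alter cell adhesion rather than bearing load. In the heart the endocardium lines the chambers and contributes cells to the valves, whose matrix is rich in several of these proteins, while coronary endothelial cells sit on a vascular basement membrane.

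The upstream sequences of 4 genes are shown because 3 of them, Mfap2, Postn and Thbs2, were called in both main comparisons below, while Tnc was called in the opposite direction in endocardial cells. They are RefSeq sequences on build GRCm38.p6, each the 250 bases before a RefSeq start that lies within 50 bases of the annotated gene start. Capitals mark matches, on either strand, to 4 short motifs. The TATA box was searched as TATAAA. The GC box was searched as GGGCGG. The AP-1 site was searched as TGANTCA. The TEAD site was searched as CATTCC, and no match overlapped another in the sequences shown.
Mfap2, chr4:141010174-141010423, plus strand: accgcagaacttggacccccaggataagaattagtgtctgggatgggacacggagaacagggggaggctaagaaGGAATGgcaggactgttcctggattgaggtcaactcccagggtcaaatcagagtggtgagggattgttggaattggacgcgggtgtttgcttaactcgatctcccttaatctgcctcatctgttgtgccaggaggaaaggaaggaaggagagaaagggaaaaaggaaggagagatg
Postn, chr3:54360857-54361106, plus strand: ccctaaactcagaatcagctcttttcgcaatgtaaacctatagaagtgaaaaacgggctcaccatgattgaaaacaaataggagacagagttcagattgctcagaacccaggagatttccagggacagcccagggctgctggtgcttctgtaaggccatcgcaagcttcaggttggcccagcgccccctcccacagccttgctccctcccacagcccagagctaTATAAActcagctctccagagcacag
Thbs2, chr17:14694263-14694512, minus strand: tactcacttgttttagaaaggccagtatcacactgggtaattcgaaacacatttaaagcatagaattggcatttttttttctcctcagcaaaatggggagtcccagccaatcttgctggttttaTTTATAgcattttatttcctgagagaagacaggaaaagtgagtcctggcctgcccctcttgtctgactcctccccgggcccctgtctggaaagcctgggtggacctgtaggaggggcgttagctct
Tnc, chr4:64047016-64047265, minus strand: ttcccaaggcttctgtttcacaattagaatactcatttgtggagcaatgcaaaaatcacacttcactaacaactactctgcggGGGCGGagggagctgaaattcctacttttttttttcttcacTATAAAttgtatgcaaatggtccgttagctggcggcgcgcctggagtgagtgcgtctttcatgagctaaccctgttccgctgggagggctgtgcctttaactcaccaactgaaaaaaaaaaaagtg
The Postn sequence held the TATA letters with their first base at position -26 from the start, the usual place of a TATA box. Thbs2 held them on the other strand at -126, and Tnc held them at -126 with a GC box at -167. Mfap2 held the TEAD letters, read on the other strand, at -176. Of 32851 RefSeq mouse promoters, 12.4% held the TATA letters in the same window, 32.7% the GC box, 6.75% the AP-1 site and 12.6% the TEAD site. A match is a description of the letters only.

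The 9 libraries held 12750553 to 19474419 counts each, with 17130 to 21221 genes above 0, and the listed genes took 1.40% to 2.05% of the counts. Levels are given as CPM, counts scaled to a common library total with a TMM correction for composition. The summed markers of each label were highest in the population of that label, although this did not hold for every single marker. Tbx20 of the endocardial list averaged 88 CPM in endocardial and 136 CPM in venous libraries. Nr2f2 and Ephb4 of the venous list averaged 123 and 104 CPM in endocardial and 54.8 and 80.7 CPM in venous libraries. All other endocardial, arterial and venous markers averaged highest in the population of their label. The 7 endocardial markers summed to 3864 to 4704 CPM in endocardial, 94.9 to 110 CPM in arterial and 282 to 411 CPM in the venous libraries. The 9 arterial markers summed to 341 to 420 CPM in endocardial, 956 to 1267 CPM in arterial and 442 to 520 CPM in the venous libraries, and 4 venous markers to 359 to 535, 561 to 700 and 1007 to 1168 CPM in the same order. The 10 general endothelial markers summed to 4574 to 5965 CPM in endocardial, 6216 to 8252 CPM in arterial and 5915 to 7693 CPM in the venous libraries. Markers of other cells moved too. The 12 fibroblast markers summed to 827 to 1188 CPM in endocardial, 49.4 to 85.8 CPM in arterial (Dpep1 at 0) and 986 to 1203 CPM in the venous libraries, 8 valve mesenchyme markers to 890 to 1238, 60.0 to 85.5 and 305 to 579 CPM, and 11 mural markers to 85.1 to 151, 537 to 847 and 241 to 348 CPM, each in that order. Most of the valve mesenchyme sum in endocardial and venous libraries was Vcan, which averaged 1000 and 329 CPM there. Sox9 and Prrx1 averaged highest in venous libraries and Msx1 in arterial libraries. Of the 8 valve mesenchyme markers, 2 were called higher and 1 lower in endocardial than coronary cells. The 5 lymphatic markers summed to 638 to 702 CPM in endocardial, 10.6 to 21.2 CPM in arterial (Ccl21a at 0) and 28.2 to 52.3 CPM in the venous libraries. Of these 5, 4 were called higher in endocardial than coronary cells and none lower. The part of the lymphatic markers in the results below was not tested. The 12 cardiomyocyte markers summed to 513 to 621 CPM in endocardial (Nppa at 0), 277 to 403 CPM in arterial and 411 to 572 CPM in the venous libraries, 7 epicardial markers to 25.5 to 33.1, 183 to 211 and 156 to 185 CPM, 8 leukocyte markers to 5.70 to 12.5, 3.28 to 8.97 and 5.19 to 6.40 CPM, and 6 erythroid and platelet markers to 18.9 to 79.1, 101 to 203 and 58.6 to 63.7 CPM in that order. Wt1 made up most of the epicardial sum in every library, with means of 20 (endocardial), 189 (arterial) and 147 CPM (venous). Upk3b, Upk1b and Msln averaged highest in endocardial libraries, and Krt19, Aldh1a2 and Tbx18 in venous libraries. Of the 6 epicardial markers tested, 1 was called lower in endocardial than coronary cells and none was called between arterial and venous cells. Several listed matrix genes are also made by fibroblasts, valve mesenchyme and mural cells, and in these sorted bulk samples fewer cells of a type and less RNA per cell cannot be told apart. Endocardial replicate 1 stood apart from the other endocardial libraries on the second principal component (139.4 against 1.8 and -16.2), and counts without it are given below.

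Genes called higher in endocardial than coronary cells came from the elastic-fibre, microfibril, lysyl oxidase and matricellular groups and from the other glycoproteins, and those called lower were laminin chains, Nid2, Sparc, Sparcl1 and Tnc. All 3 fibrillin and elastin genes, 3 of 5 emilin and microfibril-associated genes, 2 of 4 latent TGF-beta binding proteins, 2 of 5 lysyl oxidases, 1 of 5 fibulins, 4 of 8 matricellular genes and 3 of 4 other glycoproteins were higher, against 0 of 9 laminin chains tested. Of 47 listed genes that passed the filter on low counts, 18 were higher and 8 lower in endocardial libraries than in the mean of the arterial and venous libraries on the log scale, and 21 were not called (edgeR quasi-likelihood test, with p adjusted by Benjamini-Hochberg over every gene tested and a threshold of 0.05). Over all 17103 genes tested, 6.91% were called higher and 7.00% lower, so that 38.3% of the listed genes against 6.91% of all genes were called higher, and 17.0% against 7.00% lower. The median log2 difference was 0.81 over the listed genes and 0.08 over all genes. Without endocardial replicate 1 the number of listed genes called was 26, as with it, but the genes were not all the same. Lama4 and Lamb1 lost their call, and Agrn and Ltbp4 gained one.

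**Figure D1:**
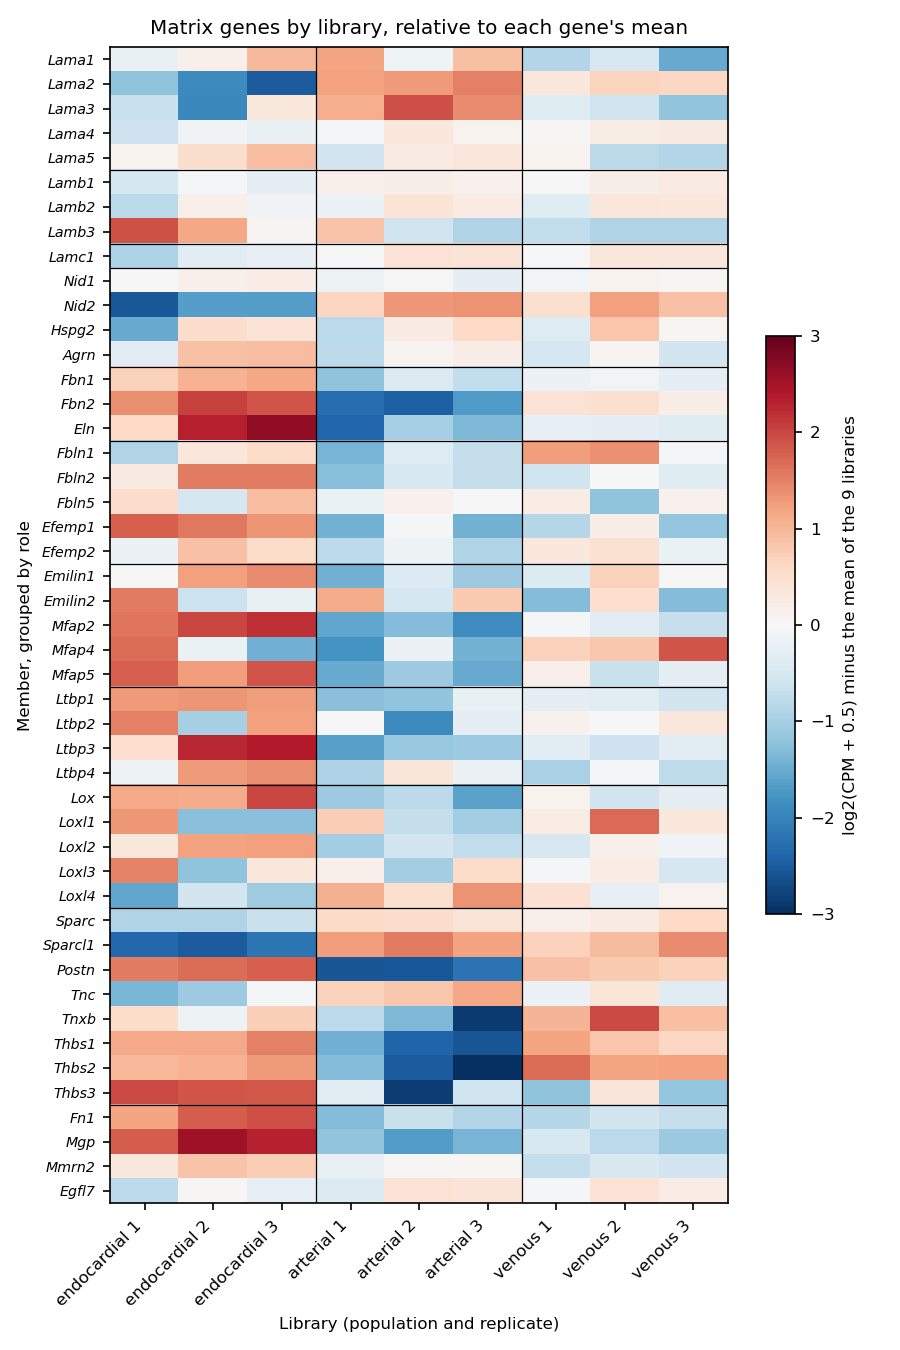
Heat map of 47 tested matrix genes (rows, grouped by role in the order laminins, linkers, fibrillins and elastin, fibulins, emilins and microfibril-associated genes, latent TGF-beta binding proteins, lysyl oxidases, matricellular genes, other glycoproteins) in 9 libraries (columns), coloured by log2(CPM + 0.5) minus the gene's mean over the 9 libraries. The endocardial columns are red for most fibrillin, microfibril and Fn1 rows and blue for Nid2, Lama2 and Sparcl1.

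Among laminin chains, none was called higher in endocardial cells, and Lama2, Lama4, Lamb1 and Lamc1 were called lower. Expressed per kilobase of exon, so that genes of different length can be set side by side, Lama4, the alpha chain typical of endothelium, made up 96.4% to 98.1% of alpha-chain signal in endocardial, 94.6% to 95.4% in arterial and 97.5% to 98.3% in venous libraries. Lamb1 made up 79.5% to 83.8% of beta-chain signal in endocardial, 79.5% to 84.7% in arterial and 80.1% to 85.4% in venous libraries, and Lamc1 at least 99.7% of gamma-chain signal of Lamc1 and Lamc3 in every library. The alpha 4, beta 1 and gamma 1 chains, which assemble into 1 laminin of endothelial basement membranes, were thus the most abundant chains of their kind in all 3 populations.
Lama4 (chr10:38965515-39110188) stood at 837, 1187 and 1099 CPM in endocardial, 1246, 1597 and 1374 CPM in arterial and 1318, 1498 and 1551 CPM in the venous libraries. Lamb1 (chr12:31265234-31329644) stood at 437, 613 and 522 CPM in endocardial, 703, 723 and 691 CPM in arterial and 634, 715 and 756 CPM in the venous libraries. Lamc1 (chr1:153218922-153332786) stood at 411, 631 and 661 CPM in endocardial, 786, 1054 and 1025 CPM in arterial and 776, 992 and 984 CPM in the venous libraries. For all 3 chains the highest endocardial library lay below the lowest coronary one, and replicate 1 was the lowest of its population for Lama4 and Lamc1 throughout. The log2 differences from coronary cells were -0.46 ± 0.14 for Lama4 (SE, edgeR adjusted p = 0.0364), -0.42 ± 0.13 for Lamb1 (adjusted p = 0.0443) and -0.72 ± 0.17 for Lamc1 (adjusted p = 0.0067). The Lama4 call was lost without endocardial replicate 1 or 3, arterial replicate 2 or 3, or venous replicate 2 or 3 (adjusted p 0.0536 to 0.153), and the Lamb1 call without endocardial replicate 1 or 3, arterial replicate 2 or 3, or any venous replicate (adjusted p 0.0513 to 0.175).

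Lama2 (chr10:26980036-27619758), the alpha chain of muscle basement membranes, stood at 5.81, 3.39 and 2.10 CPM in endocardial, 32.9, 34.7 and 40.9 CPM in arterial and 17.7, 22.8 and 22.1 CPM in the venous libraries. The 3 ranges did not overlap, with endocardial libraries lowest and arterial libraries highest. The endocardial minus coronary log2 difference was -2.87 ± 0.34 (SE, edgeR adjusted p = 1.25e-05), and the difference of arterial from venous cells, 0.79 ± 0.33, was not called (adjusted p = 0.502). The sum of the 11 mural markers, most of it Abcc9 in the coronary libraries, ran in the same order of populations, although Pdgfrb was highest in endocardial libraries; 3 of the 11 were called lower and 1 higher in endocardial than coronary cells, and 1 higher in arterial than venous cells. Their part in the result was not tested.
Lama3 (chr18:12333819-12583013), an alpha chain of an epithelial laminin, stood at 5.73, 2.09 and 12 CPM in endocardial, 20.6, 37.5 and 26.1 CPM in arterial and 7.22, 6.11 and 3.89 CPM in the venous libraries. Every arterial library lay above every endocardial and venous one, and those overlapped. The arterial minus venous log2 difference was 2.29 ± 0.52 (SE, edgeR adjusted p = 0.0497). This call was lost with the replicate number as a block (adjusted p = 0.0864), with the stricter filter (0.0593), without endocardial replicate 1, arterial replicate 2 or 3, or any venous replicate (adjusted p 0.0666 to 0.235). Lamb3, a beta chain of the same epithelial laminin, averaged 1.68 ± 1.25 CPM in endocardial, 0.431 ± 0.650 CPM in arterial and 0.0197 ± 0.0342 CPM in the venous libraries (SD, n = 3 each).
Lama5, the other alpha chain of endothelial basement membranes, averaged 15.7 ± 4.49 CPM in endocardial, 11 ± 3.54 CPM in arterial and 7.51 ± 3.29 CPM in the venous libraries (SD, n = 3 each) and was called in neither comparison (edgeR adjusted p = 0.167 for endocardial minus coronary). Lamb2 averaged 74.9 ± 23.7, 97.6 ± 19.2 and 94.3 ± 24.0 CPM in that order and was not called. Lama1 and Lamb3 averaged under 3 CPM in every population and were not called, and Lamc3, with at most 26 counts in a library, did not pass the filter.

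**Figure D2:**
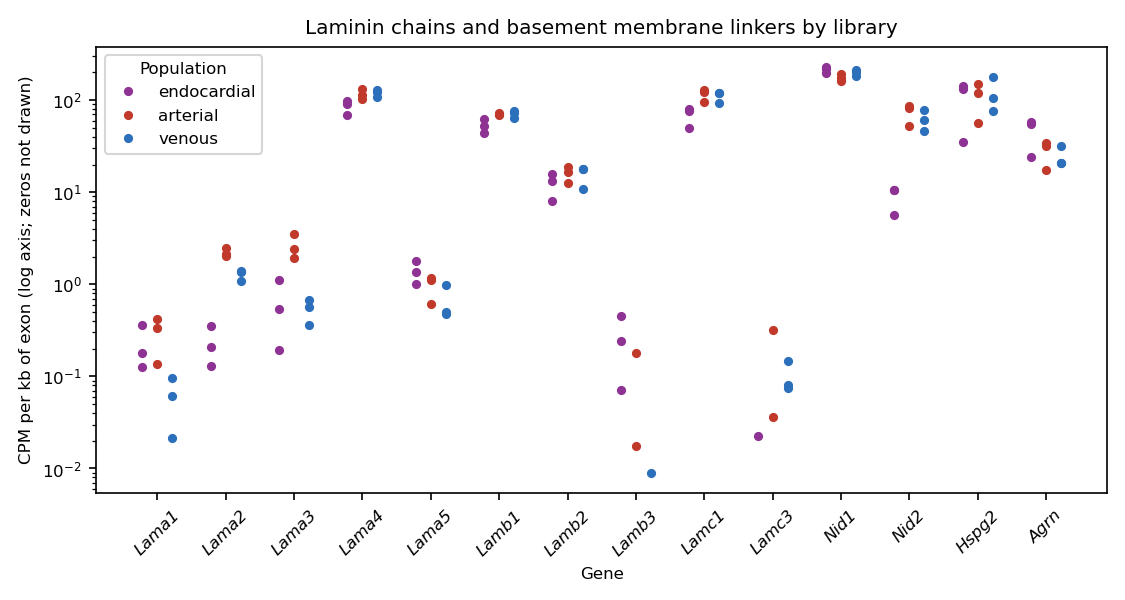
Level per library of 14 laminin, nidogen, perlecan and agrin genes in CPM per kilobase of exon (log axis, zeros not drawn), with endocardial, arterial and venous libraries side by side. Lama4, Lamb1, Lamc1, Nid1 and Hspg2 lie high in all 3 populations, while Nid2 and Lama2 are several-fold lower in endocardial libraries.

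The 2 nidogens, which bridge laminin and collagen IV, behaved differently. Nid1 (chr13:13437551-13512269) stood at 1368, 1527 and 1580 CPM in endocardial, 1218, 1343 and 1133 CPM in arterial and 1280, 1470 and 1415 CPM in the venous libraries. Venous libraries overlapped both other populations while every endocardial library lay above every arterial one, and the endocardial minus coronary log2 difference of 0.19 ± 0.12 was not called (SE, edgeR adjusted p = 0.361). Nid2 (chr14:19751265-19811787) stood at 29.3, 54.5 and 55.0 CPM in endocardial, 269, 427 and 443 CPM in arterial and 240, 404 and 318 CPM in the venous libraries. Every endocardial library lay far below every coronary one, while arterial and venous libraries overlapped. The log2 difference was -2.91 ± 0.28 (SE, edgeR adjusted p = 1.30e-05), about 7.54-fold, and 8.45% of Nid2 exon bases overlap Rtraf on the other strand.
Hspg2 (chr4:137468769-137570630), which encodes the heparan sulphate proteoglycan perlecan, stood at 499, 2062 and 1904 CPM in endocardial, 815, 1700 and 2143 CPM in arterial and 1080, 2553 and 1494 CPM in the venous libraries. Replicate 1 was the lowest library in each population and the populations overlapped. Neither comparison called it, with log2 differences of -0.13 ± 0.56 for endocardial minus coronary (SE, edgeR adjusted p = 0.938) and -0.14 ± 0.64 for arterial minus venous (adjusted p = 0.985). Agrn, the proteoglycan agrin, stood at 225, 512 and 535 CPM in endocardial, 163, 294 and 319 CPM in arterial and 195, 295 and 192 CPM in the venous libraries. Endocardial replicates 2 and 3 lay above all coronary libraries and endocardial replicate 1 lay among them. The log2 difference of 0.81 ± 0.31 was not called (SE, edgeR adjusted p = 0.148), but was called with the replicate number as a block (adjusted p = 0.00526), with DESeq2 (0.0187), with no filter (0.015) and without endocardial replicate 1 (0.00613).

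All 3 fibrillin and elastin genes were higher in endocardial cells. Fbn1 (chr2:125300594-125507993), the main fibrillin of microfibrils, stood at 1054, 1343 and 1459 CPM in endocardial, 283, 492 and 390 CPM in arterial and 577, 618 and 529 CPM in the venous libraries. The 3 populations did not overlap. The endocardial minus coronary log2 difference was 1.44 ± 0.16 (SE, edgeR adjusted p = 5.22e-06), about 2.72-fold; the arterial minus venous difference of -0.57 ± 0.19 was not called (adjusted p = 0.301). A predicted gene, Gm9913, overlaps 20.14% of Fbn1 exon bases on the other strand, and whether counting used strand is not given in the sources used here.
Fbn2 (chr18:58008623-58210487), the fibrillin of fetal microfibrils, stood at 108, 171 and 152 CPM in endocardial, 7.89, 7.03 and 12.1 CPM in arterial and 54.9, 56.5 and 46.6 CPM in the venous libraries. Arterial libraries lay lowest, endocardial libraries highest, and no ranges overlapped. The log2 differences were 2.72 ± 0.19 for endocardial minus coronary (SE, edgeR adjusted p = 4.19e-08) and -2.55 ± 0.25 for arterial minus venous (adjusted p = 2.53e-05). Per kilobase, Fbn2 made up 8.58% to 10.5% of fibrillin signal in endocardial, 1.29% to 2.76% in arterial and 7.48% to 8.03% in venous libraries.
Eln (chr5:134702593-134747323), which encodes tropoelastin, stood at 48.3, 161 and 203 CPM in endocardial, 5.7, 16 and 12 CPM in arterial and 26.7, 26.2 and 24.4 CPM in the venous libraries. Endocardial replicate 1 was well below the other endocardial libraries, and all 3 lay above every coronary library. The log2 difference from coronary cells was 3.02 ± 0.43 (SE, edgeR adjusted p = 0.00179), about 8.13-fold.

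Of the 5 emilin and microfibril-associated genes, Mfap2, Mfap5 and Emilin1 were higher in endocardial than coronary cells. Mfap2 (chr4:141010418-141015984) and Mfap5 (chr6:122505845-122529290) encode small glycoproteins of microfibrils. Mfap2 stood at 45.4, 60.6 and 69.4 CPM in endocardial, 4.64, 5.70 and 3.60 CPM in arterial and 14.3, 11.5 and 8.96 CPM in the venous libraries. Mfap5 stood at 88.1, 60.3 and 94.2 CPM in endocardial, 8.48, 11.5 and 8.53 CPM in arterial and 27.9, 15.7 and 20.5 CPM in the venous libraries. For both genes the populations did not overlap and the order was endocardial, venous, arterial from high to low. The endocardial minus coronary log2 differences were 2.99 ± 0.24 for Mfap2 (SE, edgeR adjusted p = 1.52e-07) and 2.50 ± 0.22 for Mfap5 (adjusted p = 4.53e-07). Arterial cells lay below venous cells by -1.31 ± 0.30 for Mfap2 (adjusted p = 0.0407) and -1.16 ± 0.27 for Mfap5 (adjusted p = 0.0495), which was close to the threshold. The Mfap2 call was lost with only the coronary libraries fitted and without endocardial replicate 2 or 3, arterial replicate 1 or 3, or venous replicate 1 or 2 (adjusted p 0.061 to 0.21). The Mfap5 call was lost with RLE scaling, the stricter filter or only the coronary libraries, and without endocardial replicate 3, arterial replicate 1 or 3, or venous replicate 1 or 3 (adjusted p 0.0545 to 0.275).
Emilin1 (chr5:30913402-30921277), an elastic-fibre glycoprotein, stood at 50.1, 120 and 138 CPM in endocardial, 18.5, 38.2 and 23.7 CPM in arterial and 38.1, 82.9 and 51.5 CPM in the venous libraries. Endocardial replicate 1 lay within the venous range. Its log2 difference was 1.39 ± 0.36 for endocardial minus coronary (SE, edgeR adjusted p = 0.0297, with the replicate block 3.28e-05) and -1.10 ± 0.44 for arterial minus venous, which was not called (adjusted p = 0.521) but was with the replicate block (adjusted p = 0.0145) or with no filter (0.00239). The endocardial call was lost without endocardial replicate 2 or 3, arterial replicate 1 or 3, or venous replicate 1 or 3 (adjusted p 0.0667 to 0.183). Against arterial cells alone the Emilin1 difference was 1.94 ± 0.44 (edgeR adjusted p = 0.0194). Against venous cells alone it was 0.84 ± 0.43 and was not called (adjusted p = 0.306), but was with the replicate block (0.0208) or no filter (0.0261). Mfap4 and Emilin2, both under 4 CPM on average in every population, were not called.

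Fbln2, a fibulin of valve and vessel matrix, was the 1 called gene of 5 fibulins. Fbln2 (chr6:91212455-91272540) stood at 159, 381 and 389 CPM in endocardial, 53.8, 95.7 and 79.0 CPM in arterial and 86.9, 132 and 101 CPM in the venous libraries. Every endocardial library exceeded every coronary one. The log2 difference was 1.78 ± 0.28 (SE, edgeR adjusted p = 0.00137), about 3.44-fold. Fbln5, which brings tropoelastin to microfibrils, averaged 56.0 ± 25.9 CPM in endocardial, 41.1 ± 4.71 CPM in arterial and 37.4 ± 17.1 CPM in the venous libraries (SD, n = 3 each), and Efemp2, which recruits lysyl oxidase, 18.1 ± 6.34, 8.48 ± 2.65 and 15.1 ± 3.53 CPM in that order, and neither was called. Fbln1 stayed under 12 CPM in every library and was not called. Efemp1 averaged 3.50 ± 0.638 CPM in endocardial, 0.269 ± 0.466 CPM in arterial and 0.463 ± 0.513 CPM in the venous libraries (SD, n = 3 each), was listed at 0 in 2 arterial libraries, and was called higher in endocardial cells with the block (edgeR adjusted p = 0.0411, against 0.121 without it), with DESeq2 (0.0483) or without arterial replicate 2 (0.0183).

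Latent TGF-beta binding proteins divided by member. Ltbp1 (chr17:75005568-75392512) stood at 534, 553 and 529 CPM in endocardial, 93.4, 97.4 and 190 CPM in arterial and 180, 176 and 151 CPM in the venous libraries. The endocardial libraries were close together and all above the coronary ones, which overlapped. Its log2 difference was 1.88 ± 0.19 (SE, edgeR adjusted p = 4.44e-06). Ltbp3 (chr19:5740904-5758532) stood at 22.2, 76.8 and 83.7 CPM in endocardial, 4.72, 6.85 and 7.06 CPM in arterial and 12.3, 9.94 and 12.4 CPM in the venous libraries. Endocardial replicate 1 was the lowest endocardial library and still above every coronary one; the log2 difference was 2.85 ± 0.33 (SE, edgeR adjusted p = 2.12e-05). Ltbp4, the family member tied to elastic-fibre assembly, stood at 125, 337 and 369 CPM in endocardial, 73.1, 180 and 124 CPM in arterial and 70.8, 135 and 81.6 CPM in the venous libraries. Endocardial replicate 1 lay among the coronary libraries. Its log2 difference of 1.33 ± 0.41 was not called (SE, edgeR adjusted p = 0.0825), but was called with the replicate block (5.39e-05), with DESeq2 (4.06e-04), with the stricter filter (0.0397) and without endocardial replicate 1 (0.0115). Ltbp2 stayed under 5 CPM in every library and was not called.

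Among lysyl oxidases, which cross-link elastin and collagen, Loxl2 and Lox were higher in endocardial cells. Loxl2 (chr14:69609068-69695834) made up 60.3% to 76.2% of the family's signal per kilobase in endocardial, 67.9% to 76.9% in arterial and 64.0% to 78.3% in venous libraries. Its levels were 134, 246 and 250 CPM in endocardial, 51.4, 70.5 and 63.3 CPM in arterial and 76, 117 and 97.7 CPM in the venous libraries. Lox (chr18:52516067-52529867) stood at 67.3, 66.7 and 124 CPM in endocardial, 13.9, 17.3 and 9.56 CPM in arterial and 32.6, 20.3 and 24.6 CPM in the venous libraries. No population overlapped another for either gene. The endocardial minus coronary log2 differences were 1.44 ± 0.20 for Loxl2 (SE, edgeR adjusted p = 7.19e-05) and 2.20 ± 0.24 for Lox (adjusted p = 6.09e-06), and neither was called for arterial minus venous (adjusted p = 0.396 and 0.258). Loxl1, Loxl3 and Loxl4 stayed under 7 CPM in every library and were not called. Loxl4 averaged 0.236 ± 0.254 CPM in endocardial, 2.46 ± 0.847 CPM in arterial and 1.12 ± 0.4 CPM in the venous libraries (SD, n = 3 each). With DESeq2 it was called lower in endocardial than coronary cells (adjusted p = 0.0481, against 0.249 with edgeR).

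Sparc and Sparcl1, which encode collagen-binding matricellular proteins, had the highest mean level per kilobase of the listed genes over the 3 populations. Both were lower in endocardial cells, where Fn1, Nid1 and Postn exceeded Sparcl1 per kilobase. Sparc (chr11:55394500-55423183) stood at 1723, 1712 and 2027 CPM in endocardial, 4755, 4615 and 4226 CPM in arterial and 3575, 3790 and 4895 CPM in the venous libraries. Sparcl1 (chr5:104079111-104113733), also called hevin, stood at 317, 289 and 355 CPM in endocardial, 3897, 4833 and 3766 CPM in arterial and 2623, 3166 and 4350 CPM in the venous libraries. Endocardial libraries lay below all coronary libraries for both genes, and arterial and venous libraries overlapped. The log2 differences were -1.24 ± 0.13 for Sparc (SE, edgeR adjusted p = 4.51e-06) and -3.55 ± 0.18 for Sparcl1 (adjusted p = 1.09e-09) or 11.7-fold. Per kilobase of exon, Sparc stood at 481 ± 47.1 in endocardial, 1196 ± 72.3 in arterial and 1079 ± 187 CPM in venous cells, and Sparcl1 at 109 ± 11.3, 1418 ± 198 and 1151 ± 301 CPM in that order (SD, n = 3 each).

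Postn, Thbs1 and Thbs2 were lower in arterial cells than in endocardial and venous cells, and Thbs3 was called higher in endocardial cells with no call between arterial and venous cells. Postn (chr3:54361109-54391037), which encodes periostin of valve and fibroblast matrix and whose upstream sequence is printed above, stood at 953, 1049 and 1140 CPM in endocardial, 55.0, 56.1 and 70.4 CPM in arterial and 613, 572 and 536 CPM in the venous libraries. All 3 populations were separate. The log2 differences were 2.49 ± 0.13 for endocardial minus coronary (SE, edgeR adjusted p = 7.53e-10) and -3.25 ± 0.16 for arterial minus venous (adjusted p = 1.83e-08), about 9.48-fold.
Thbs1 (chr2:118111876-118127133), an adhesive glycoprotein that restrains angiogenesis and can activate latent TGF-beta, stood at 84.7, 83.8 and 110 CPM in endocardial, 13.6, 6.74 and 6.03 CPM in arterial and 86.8, 68.5 and 58.6 CPM in the venous libraries. Thbs2 (chr17:14665500-14694235) stood at 18.9, 19.5 and 23.0 CPM in endocardial, 3.39, 1.21 and 0.294 CPM in arterial and 30.6, 21.5 and 21.7 CPM in the venous libraries. For both genes endocardial and venous libraries overlapped and every arterial library lay below them. The arterial minus venous log2 differences were -3.02 ± 0.30 for Thbs1 (SE, edgeR adjusted p = 3.35e-05) and -3.91 ± 0.60 for Thbs2 (adjusted p = 0.00447). Endocardial cells were above the coronary mean by 1.89 ± 0.23 for Thbs1 (adjusted p = 2.07e-05) and 1.70 ± 0.44 for Thbs2 (adjusted p = 0.0195), but against venous cells alone the log2 differences were 0.38 ± 0.27 (adjusted p = 0.471) and -0.26 ± 0.52 (adjusted p = 0.838). The Thbs2 call against the coronary mean was lost without endocardial replicate 2 or 3, arterial replicate 2 or venous replicate 3 (adjusted p 0.0573 to 0.0883).
Thbs3 (chr3:89215180-89226837) stood at 26.4, 24.9 and 24.2 CPM in endocardial, 5.01, 0.461 and 4.04 CPM in arterial and 2.48, 8.34 and 2.56 CPM in the venous libraries. Its endocardial libraries were alike and all above the coronary ones, which overlapped, with a log2 difference of 2.75 ± 0.57 (SE, edgeR adjusted p = 0.00617). The summed fibroblast markers were of similar size in endocardial and venous libraries. This sum joined markers of opposite order. Col5a1, Pdgfra, Dcn, Lum and Pi16 averaged higher in endocardial than venous libraries, and the other fibroblast markers, such as Col1a1 and Dpt, lower. The sum was lowest in arterial libraries, as Postn, Thbs1, Thbs2 and Fbn2 were. Of 12 fibroblast markers, 6 were called higher in endocardial than coronary cells and 6 lower in arterial than venous cells. The part of the fibroblast markers in these results was not tested.

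The 2 tenascins, large adhesion-modulating glycoproteins, differed in opposite senses. Tnc (chr4:63959785-64047015) stood at 23.1, 27.9 and 58.3 CPM in endocardial, 97.2, 106 and 134 CPM in arterial and 53.3, 78.0 and 46.9 CPM in the venous libraries. Arterial libraries were highest without overlap, and endocardial replicate 3 lay within the venous range. The endocardial minus coronary log2 difference was -1.16 ± 0.29 (SE, edgeR adjusted p = 0.0169), lost without endocardial replicate 2 (adjusted p = 0.106). Against arterial cells alone it was -1.62 ± 0.33 (adjusted p = 0.00491). Against venous cells alone, -0.70 ± 0.32 was not called (adjusted p = 0.224), but was with no filter (0.0172) or without endocardial replicate 3 (0.006). The arterial minus venous difference, 0.92 ± 0.32, was not called (adjusted p = 0.387). Tnxb (chr17:34670535-34719815), a fibroblast tenascin, stood at 8.79, 5.19 and 9.91 CPM in endocardial, 3.17, 2.02 and 0.368 CPM in arterial and 12.5, 24.5 and 11.5 CPM in the venous libraries. Venous libraries were highest and arterial lowest, without overlap. The arterial minus venous log2 difference was -3.12 ± 0.63 (SE, edgeR adjusted p = 0.0199), lost without arterial replicate 2 (adjusted p = 0.0693) or venous replicate 2 (adjusted p = 0.097), and the endocardial minus coronary difference of 0.54 ± 0.49 was not called (adjusted p = 0.583). Fibroblast marker sums ran in the same order of arterial and venous cells as Tnxb, and their part in the result was not tested.

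**Figure D3:**
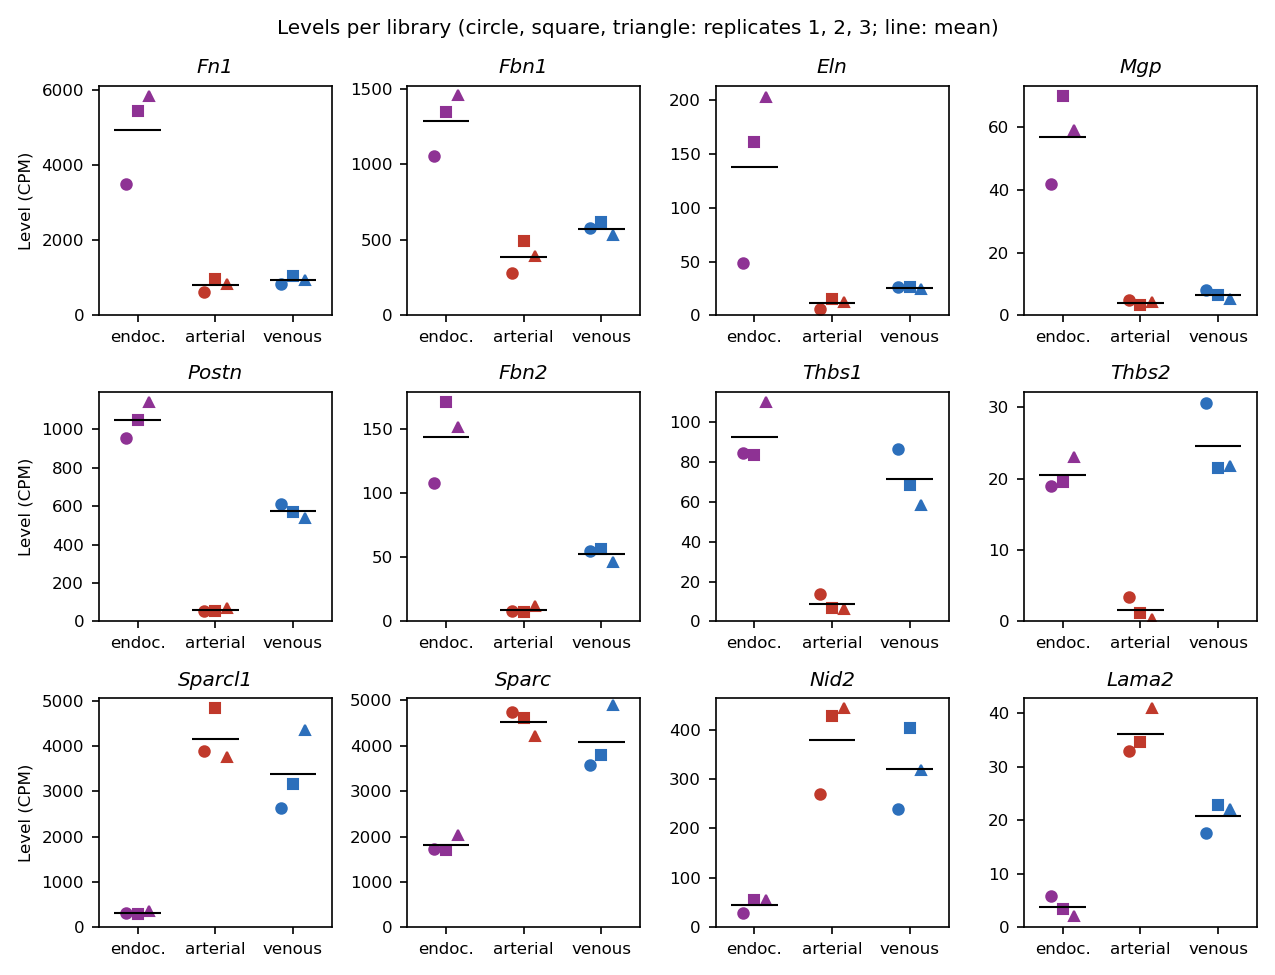
CPM in each library for 12 matrix genes, with endocardial ("endoc."), arterial and venous libraries from left to right in each panel, symbols for replicates 1, 2 and 3, and a line at each mean; every vertical axis starts at 0. Fn1, Fbn1, Eln and Mgp stand highest in endocardial libraries, Postn, Fbn2, Thbs1 and Thbs2 lowest in arterial libraries, and Sparcl1, Sparc, Nid2 and Lama2 lowest in endocardial libraries.

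Fn1, Mgp and Mmrn2 were higher in endocardial cells, and Egfl7 was not called. Fn1 (chr1:71585520-71653200), which encodes the cell-adhesive glycoprotein fibronectin, stood at 3496, 5461 and 5854 CPM in endocardial, 628, 974 and 839 CPM in arterial and 847, 1044 and 954 CPM in the venous libraries. Each endocardial library was more than 3-fold above every coronary library, and coronary populations overlapped. The log2 difference was 2.49 ± 0.16 (SE, edgeR adjusted p = 4.68e-08). Mgp (chr6:136872435-136875823), matrix Gla protein, an inhibitor of calcification and BMP signalling, stood at 42.0, 69.8 and 59.2 CPM in endocardial, 4.86, 3.28 and 4.12 CPM in arterial and 8.16, 6.42 and 5.12 CPM in the venous libraries. All endocardial libraries lay well above the rest. The log2 difference was 3.46 ± 0.25 (SE, edgeR adjusted p = 4.68e-08), about 11-fold. Mmrn2 (chr14:34375465-34404287), an endothelial glycoprotein that binds VEGF-A, stood at 336, 491 and 456 CPM in endocardial, 232, 278 and 276 CPM in arterial and 166, 197 and 181 CPM in the venous libraries. Here venous cells were lowest and no populations overlapped; the endocardial log2 difference was 0.97 ± 0.14 (SE, edgeR adjusted p = 1.27e-04) and the arterial minus venous difference, 0.53 ± 0.17, was not called (adjusted p = 0.257).
Egfl7, a secreted endothelial protein and host of a microRNA, averaged 216 ± 58.7 CPM in endocardial, 300 ± 88.9 CPM in arterial and 306 ± 51.3 CPM in the venous libraries (SD, n = 3 each). The populations overlapped, and the log2 difference of -0.49 ± 0.22 was called with the replicate block (edgeR adjusted p = 0.0133, against 0.18 without it), with no filter (0.0162) or without arterial replicate 1 (0.0256). A same-strand gene, Gm20532, covers 7.37% of its exon bases, so counts there can be divided between the 2 genes.

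Between the coronary populations fewer listed genes differed. Of 47 tested, 1 (Lama3) was higher and 7 (Fbn2, Mfap2, Mfap5, Postn, Thbs1, Thbs2 and Tnxb) lower in arterial than venous cells, against 0.310% higher and 0.760% lower of all genes tested. The listed genes had a median log2 difference of -0.22, against 0.03 over all genes. The 7 lower genes belong to the elastic-fibre and matricellular groups, and Lama3 was the 1 called laminin. The count was 8 in all and 5 without venous replicate 1 and 5 without venous replicate 2. The comparison of endocardial with coronary cells uses the same coronary libraries, so the 2 sets of differences are set side by side and not as 2 independent results.

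**Figure D4:**
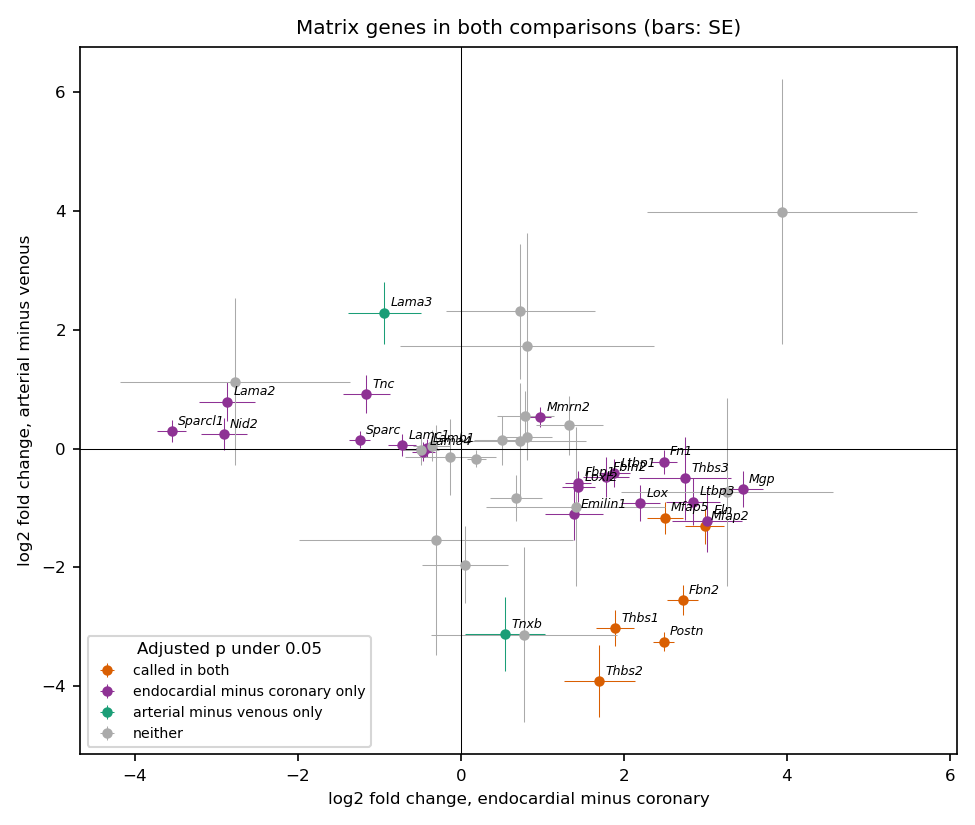
log2 differences of 47 matrix genes for endocardial minus coronary (horizontal) and arterial minus venous (vertical), with bars of 1 SE, coloured by which comparison called them at adjusted p under 0.05. Postn, Fbn2, Thbs1 and Thbs2 lie at the lower right, Fn1, Mgp and Eln at the right at -0.22, -0.68 and -1.21 on the vertical axis, and Sparcl1, Nid2 and Lama2 at the left.

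Against each coronary population in turn, 19 of 47 listed genes were higher and 7 lower in endocardial than arterial cells, where 5.75% of all genes were higher and 5.92% lower, and the median log2 difference of the listed genes was 1.09. Against venous cells 15 were higher and 5 lower, where 4.44% of all genes were higher and 5.81% lower, with a median of 0.84. These comparisons share the endocardial libraries. Postn stood at 4.11 ± 0.17 above arterial cells (SE, log2, edgeR adjusted p = 2.11e-10) and 0.87 ± 0.15 above venous cells (adjusted p = 9.44e-04). For Fn1 the differences were alike, at 2.60 ± 0.21 and 2.38 ± 0.21 (adjusted p = 4.95e-07 and 1.88e-06), and for Sparcl1 at -3.70 ± 0.20 and -3.40 ± 0.19 (adjusted p = 1.80e-09 and 8.97e-09). With the replicate block Thbs3 was no longer called against arterial (adjusted p = 0.0773, against 0.0196 without the block) or venous cells (0.134, against 0.048), while Lama4 was called against both (0.025 and 0.0133), as were Agrn (0.031 and 0.0133), Egfl7 (0.0474 and 0.0252) and Ltbp4 (0.00133 and 1.69e-04). Lamb1 was called with the block against arterial cells (0.0407, against 0.0885 without it) and Emilin1 against venous cells (0.0208, against 0.306 without it).

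Replicate 1, which the labels number as batch 1 in all populations, was the lowest library in all 3 populations for 12 of 47 listed genes (25.5%), among them Hspg2, Fn1, Fbln2, Loxl2, Ltbp4, Lamc1 and Nid2. Over all genes tested the share was 8.52%. Replicate 2 was lowest throughout for 1 listed gene, Ltbp2 (2.13%, against 4.77% of all genes), and replicate 3 for none (2.95% of all genes). The 12 genes had a median GC content of 55.8% in their longest transcript and the other 35 listed genes 52.7%; over all genes the medians were 53.7% for those lowest in replicate 1 and 48.9% for the others. The part of base composition in these levels was not tested. The 26 genes called for endocardial minus coronary and the 8 for arterial minus venous kept the pooled direction in each of the 3 batches. Called genes are selected for this property. It held for 99.7% and 100% of all called genes, and for 44.7% and 34.0% of all tested genes.

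**Figure D5:**
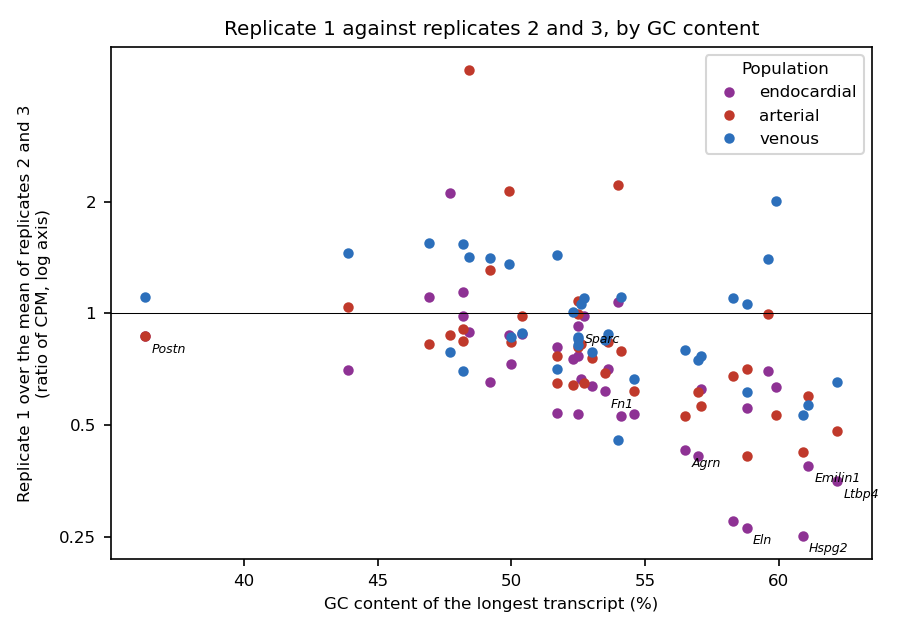
Ratio of CPM in replicate 1 to the mean of replicates 2 and 3 (log axis) against GC content of the longest transcript (%), for 36 listed genes averaging at least 10 CPM, with 1 point per population. Hspg2, Ltbp4 and Emilin1 lie below 1 in every population, and Postn and Sparc lie near 1.

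Other genes of the same pathways were read from 3 further lists. Of their 47 genes tested, 17 (36.2%) were higher and 1 (2.13%) lower in endocardial than coronary cells, against 6.91% and 7.00% of all genes tested. The 28 other non-collagen matrix genes tested gave 12 higher and 1 lower, the 7 laminin receptors 1 higher and the 12 elastic-fibre and TGF-beta partners 4 higher. Smoc1, a SPARC-related basement membrane protein, averaged 139 ± 43.4 CPM in endocardial, 0.738 ± 0.269 CPM in arterial and 2.20 ± 0.223 CPM in the venous libraries (SD, n = 3 each), a log2 difference of 6.75 ± 0.25 (SE, edgeR adjusted p = 4.06e-11). Tgfbi, an adhesion glycoprotein related to periostin, averaged 162 ± 8.54, 1.98 ± 0.438 and 28.1 ± 4.23 CPM in that order, with a log2 difference of 4.44 ± 0.18 (adjusted p = 8.35e-11). Frem1, Hmcn1, Ntn4 and Egflam, also secreted matrix proteins, were higher by 3.73, 2.76, 2.97 and 3.54 on the log2 scale (adjusted p 7.53e-10 to 2.67e-06). The 1 lower gene was Vwa1, with a log2 difference of -3.56 ± 0.36 (SE, edgeR adjusted p = 4.64e-06). It averaged 3.95 ± 2.12 CPM in endocardial, 49.1 ± 12.4 CPM in arterial and 44.4 ± 12.8 CPM in the venous libraries (SD, n = 3 each). None of these lists held a gene called higher in arterial than venous cells, where 0.310% of all genes tested were called higher. Tgfbi, Frem1, Ntn4 and Smoc1 were lower (log2 -3.82, -1.74, -2.71 and -1.54, edgeR adjusted p 1.42e-07 to 0.0339). They were 8.51% of the genes tested from these lists, against 0.760% of all genes tested.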

How the data were processed

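RNA of sorted cells was sequenced as single reads; the labels' protocols name both the New England Biolabs Ultra and the Ovation single-cell kit (from 1 ng of RNA) without saying which library had which. The authors deposited 1 table of expected counts per gene, made with CASAVA 1.8.2, cutadapt 1.3 and RSEM 1.2.3 on GRCm38 per the submitters' processing notes; which aligner was used and whether counting used strand is not stated there. Such estimated counts share reads among similar genes, and 45.5% of values above 0 were not whole. Values were rounded, and edgeR 4.0.16 (R 4.3.3) fitted all 9 libraries with 1 mean per population, TMM scaling and a minimum count of 10, leaving 17103 genes, tested with the quasi-likelihood test and Benjamini-Hochberg adjustment over all of them, called at 0.05. SE is the log2 difference divided by the square root of F. Alternatives were DESeq2 1.42.0, RLE scaling, no filter, a minimum count of 50, only the libraries compared, the replicate number as a block and leaving out each library. Coordinates and exon lengths came from GENCODE release 21 for mouse (GRCm38), and promoters from RefSeq, where 19 of 48 genes had no entry. The deposited table was counted on Ensembl release 76. Exon length is the merged length of all annotated exons of a gene, which can exceed that of any 1 transcript. Levels per kilobase were divided by this merged length, so comparisons between genes are approximate.

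The labels give a batch number equal to the replicate number, which pairs the libraries. Deviations from population means correlated at -0.09 to 0.165 between libraries of the same number and at -0.271 to 0.16 between libraries of different number. The reported fit has no block, and the blocked value is given where it changes a call. Genes with values in every library are those called in either main comparison and the 5 highest per kilobase, with a few others chosen after their values were seen (Agrn, Ltbp4). Marker lists were those of endothelial, endocardial, arterial, venous, lymphatic, fibroblast, valve mesenchyme, mural, cardiomyocyte, epicardial, leukocyte and erythroid and platelet cells. The genes and lists were chosen with earlier results of these data known.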

Additional observations from a re-analysis of the deposited data

How the results depend on the processing

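None of the differences of the listed genes reversed sign among the called genes under any alternative run. The number of listed genes called for endocardial minus coronary was 26, with 30 under DESeq2, 26 under RLE scaling, 28 with no filter, 27 with the stricter filter and 22 to 26 without 1 library. For endocardial minus arterial it was 26 (22 to 30 over all alternatives) and for endocardial minus venous 20 (16 to 25). Arterial minus venous gave 8, with 5 to 8 without 1 library (5 without venous replicate 1 or 2), 12 with no filter and 6 with the stricter filter; the cause was not tested. Fitting only the libraries compared was not run for endocardial minus coronary, which uses all of them.

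With the replicate block the counts were 30 for endocardial minus coronary, 8 for arterial minus venous, 30 for endocardial minus arterial and 24 for endocardial minus venous, and it changed no call of a listed gene other than those given with the results. Each library left out leaves 2 in its population, and 3 libraries per population limit what small differences such as those of Lama4 and Lamb1 can show.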
